A study of Gallus gallus with 20 samples.

Results

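Heat shock proteins and chaperones fold newly made proteins, hold damaged ones in solution and pass them on for refolding or degradation. The group described here holds the protein-coding genes of the RefSeq table of GRCg7b whose symbol begins with HSPA, HSPB, HSPD, HSPE or HSPH and a digit, HSP90, DNAJA, DNAJB, DNAJC, CCT2 to CCT8 or HSF1 to HSF3. This gave 75 of 17839 protein-coding genes on assembled chromosomes. The rule used only symbols, and the group was proposed with earlier results of these data known.

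The data came from lenses dissected from chicken embryos (Gallus gallus) at embryonic day 4.5, with about 44 lenses in each of 3 pools. Chromatin was profiled by CUT&RUN, in which an antibody guides a nuclease to release the DNA around its target, with 100000 nuclei per reaction. The 20 libraries fell into groups by antibody, with 3 for each histone mark (H3K4me3 and H3K27me3), 3 for each Polycomb protein (AEBP2, EZH2, JARID2 and SUZ12) and 2 for the IgG control antibody. Antibodies were diluted 1 in 25 (AEBP2), 1 in 50 (JARID2, both histone marks and IgG) or 1 in 100 (EZH2 and SUZ12). One peak list per antibody was used, 6 in all, and no IgG signal was used here. There were therefore no values per library, and no difference below could be set against the spread between libraries or tested. Depth is unknown, so that a gene without a peak is a gene without a peak in that list and not one shown to lack the mark.

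Chaperones work in teams. HSP70 proteins bind unfolded segments, J-domain proteins of the DNAJ families bring them substrates and trigger ATP hydrolysis, and HSP110 proteins release the nucleotide. HSP90 acts later on clients such as kinases and receptors, and the chaperonins HSP60 (mitochondria) and CCT (cytosol) enclose whole proteins in a chamber. Small heat shock proteins (HSPB) bind unfolding proteins without ATP, and the lens holds a very large amount of their relatives, the alpha-crystallins. Heat shock factors (HSF) are the transcription factors that raise many of these genes under stress. H3K4me3 marks the starts of active or poised genes. H3K27me3 is laid down by Polycomb repressive complex 2 (PRC2), in which EZH2 is the enzyme, SUZ12 a core subunit and JARID2 and AEBP2 accessory subunits, and it is found at silenced developmental genes.

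The strand of each gene was not used, so a peak was counted as being at a gene end when it overlapped a window of 1 kb on both sides of either end by at least 1 bp. Such a window also takes in peaks of neighbouring genes. The fold of a peak is the authors' ratio over the peak caller's background. It is used below only to describe and rank peaks within 1 list, so folds of different antibodies are not compared. A gene's fold is that of its strongest peak at an end, and its percentile is the share of the peaks of that list with a lower fold. Coordinates are those of GRCg7b, counted from 1.

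The tissue label was checked first. All 9 lens markers (CRYAA, ASL1, PAX6, FOXE3, PROX1, BFSP1, BFSP2, MIP and MAF) had H3K4me3 and no H3K27me3 at their ends. Among markers of neighbouring tissues, none of 4 muscle genes and none of 4 endothelial genes had an H3K4me3 peak, while 2 of 4 retinal genes, 1 of 4 blood genes and 2 of 4 periocular mesenchyme genes did, all 5 together with H3K27me3. At the defining markers of these other cells the H3K4me3 folds, where there was a peak, ran from 2.17 at COL1A1 to 9.89 at LMO2. Those of the lens markers ran from 3.61 at CRYAA to 70.2 at PAX6, so that CRYAA and ASL1 (7.05) lay inside the range of the other cells. The part of other cells in the results below was not tested. In pooled tissue, a mark in fewer cells and less of a mark per cell cannot be told apart.

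Most chaperone genes carried H3K4me3 alone. An H3K4me3 peak lay at an end of 60 of the 75 members (80%, exact Clopper-Pearson 95% interval 69.2 to 88.4), against 57.2% of all coding genes. These intervals cover counting error only and treat genes as independent, which genes that share a peak are not. H3K27me3 was at 10 members (13.3%, 6.58 to 23.2), against 26% of all coding genes. By state, 55 members had H3K4me3 alone (73.3%, against 45.3% of all coding genes), 5 had both marks (6.67%, against 12%), 5 had H3K27me3 alone (6.67%, against 14%) and 10 had neither (13.3%, against 28.7%). All members have a symbol, and of the 14300 coding genes that have one, 52.8% had H3K4me3 alone, 13.6% both, 14.8% H3K27me3 alone and 18.8% neither.

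Many of these peaks were shared with a neighbour. The strongest H3K4me3 peak of 38 of the 60 members also lay within 1 kb of an end of another coding gene, as it did for 52.4% of the 10209 coding genes with such a peak. With only the peaks that no other coding gene shared, 24 members had H3K4me3 (32%), against 28.8% of coding genes. The difference in H3K4me3 between members and all coding genes was thus 22.8 percentage points with all peaks and 3.18 with unshared peaks. For the other antibodies too, shared peaks were common at members: the strongest EZH2 peak was shared at 35 of 50 (45.8% of coding genes with one), that of SUZ12 at 38 of 63 (44.5%), of JARID2 at 15 of 31 (38.3%) and of AEBP2 at 12 of 32 (32.5%). Whether a shared peak belongs to the member or to its neighbour was not tested.

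**Figure D1:**
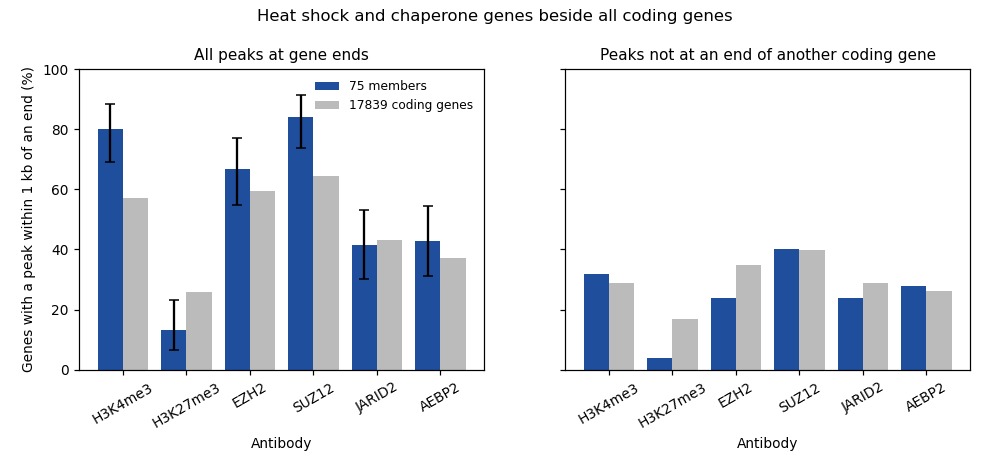
Share of genes (%) with a peak within 1 kb of a gene end for each antibody, for the 75 heat shock and chaperone genes (blue) and 17839 coding genes (grey), with all peaks on the left and with only peaks not at an end of another coding gene on the right. Error bars are exact 95% binomial intervals of the members. H3K4me3 stands at 80% against 57.2% on the left and at 32% against 28.8% on the right.

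The count varied with the family, which is a description and was not tested. All 3 HSP90 genes, both HSP60 and HSP10 genes, all 7 CCT genes, all 4 DNAJA genes and all 3 genes with an HSF symbol had H3K4me3 at an end. So did 9 of 10 genes of the HSP70 and HSP110 group, 9 of 11 DNAJB genes and 22 of 27 DNAJC genes. Only 1 of 8 HSPB genes had it (12.5%, interval 0.316 to 52.7), and that gene is a special case described below. Outside the DNAJ and HSPB families, 24 of 25 members had H3K4me3 (57.2% of all coding genes) and 1 had H3K27me3 (26%). The near-complete counts rested in large part on shared peaks. Leaving those out lowered the share of all coding genes too, from 57.2% to 28.8%. With only peaks not at an end of another coding gene, H3K4me3 was at 1 of 3 HSP90 genes, 6 of 10 of the HSP70 and HSP110 group, neither HSPD1 nor HSPE1, 4 of 7 CCT, 1 of 4 DNAJA, 2 of 11 DNAJB, 9 of 27 DNAJC, 1 of 3 HSF and 0 of 8 HSPB genes.

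**Figure D2:**
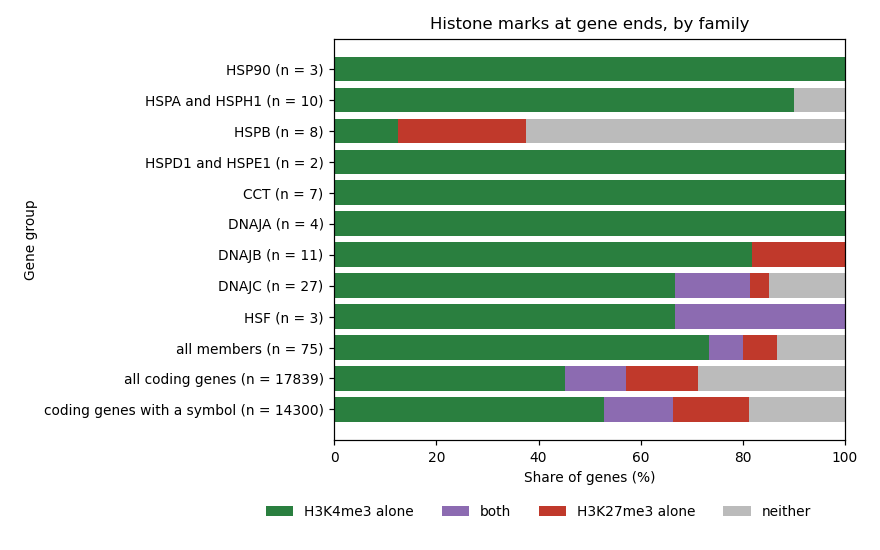
Share of genes (%) in each of 4 histone states at gene ends, by family, with all 75 members, all coding genes and coding genes with a symbol below. Bars of the HSP90, HSPD1 and HSPE1, CCT and DNAJA families are wholly H3K4me3 alone, and 5 of 8 HSPB genes had neither mark.

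The HSP90 genes were the first group of general chaperones. HSP90AA1, the more stress-responsive cytosolic HSP90 (chromosome 5, 48992977 to 49000184), had an H3K4me3 fold of 29.5 over a peak of 2659 bp. HSP90AB1, the constitutive cytosolic form, had 23.8. HSP90B1, the HSP90 of the endoplasmic reticulum, had 13.3. All 3 peaks lay at the right end of the gene, and those of HSP90AA1 and HSP90AB1 were shared with WDR20 and SLC29A1. SUZ12 was at all 3 genes with folds of 3.87, 3.99 and 5.01 in that order. For HSP90AA1 and HSP90B1 these were at the left end, and their right ends had SUZ12 folds of 2.84 and 3.80. EZH2 was at HSP90AB1 alone (2.42), which also had the highest JARID2 fold of all members (8.77, the 94.1st percentile of the JARID2 list). HSP90AA1 had no EZH2 peak within the gene or 10 kb of it.

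The HSP70 genes spanned a wider range of H3K4me3 fold. HSPA5 (BiP, the HSP70 of the endoplasmic reticulum) had 24.6. HSPA4L, an HSP110 relative, had 24.4 and HSPA14, the HSP70 of a ribosome-bound complex in mammals, 21.9. HSPA4, also of the HSP110 branch, had 14.9 and HSPA9, the mitochondrial HSP70, 14.0. These 5 lay above the median of 13.7 over all coding genes with a peak. Below it lay HSPH1, an HSP110, with 9.90, HSPA2, a cytosolic HSP70, with 8.67, HSPA8, the constitutive cytosolic HSP70, with 7.73, and HSPA13, a microsomal relative, with 5.66. HSPA8, known as an abundant chaperone in most tissues, thus stood at the 43.1st percentile of the H3K4me3 list, and its peak was not shared with another gene. The peaks of HSPA5, HSPA4L and HSPH1 were shared, with GAPVD1, LOC112532415 and B3GLCT in that order.

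Of the PRC2 subunits, SUZ12 was at 9 of 10 genes of the HSP70 group (64.5% of all coding genes), with folds from 1.92 at HSPA13 to 5.80 at HSPA14. EZH2 was at 7 of 10 (59.3%), with folds from 1.56 at HSPA13 to 4.41 at HSPA14, JARID2 at 3 (43.2%) and AEBP2 at 4 (37.1%). For each of the 4 the share of all coding genes lay inside the exact interval of the group, which for SUZ12 was 55.5 to 99.7%. HSPA2, HSPA5 and HSPA8 had SUZ12 (4.84, 2.43 and 5.38) and no EZH2 peak at an end. HSPA12A, a distant HSP70 relative, was the only gene of the group without H3K4me3 at an end and the only one without SUZ12 there. Its ends held EZH2 (3.63) and AEBP2 (4.78), and its body of a gene 88721 bp long held 24 AEBP2 peaks. The body also held an H3K27me3 peak of fold 13.5, over 4230 bp, with an EZH2 peak of 9.03 and an H3K4me3 peak of 2.28 inside it, the last 37.7 kb from the right end.

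HSPD1 and HSPE1 encode HSP60 and its lid HSP10, the mitochondrial chaperonin. They lie 461 bp apart on chromosome 7 (HSPD1 at 9824993 to 9834299, HSPE1 at 9834761 to 9839275) and shared 1 H3K4me3 peak of fold 45.02, at the 94.2nd percentile, that was 2672 bp wide. They also shared their strongest EZH2 peak (5.85), SUZ12 peak (6.19) and JARID2 peak (2.89). No AEBP2 peak lay within either gene or 10 kb of it. The values of this pair are 1 measurement, counted at both genes.

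The CCT genes encode subunits of the cytosolic chaperonin that folds actin and tubulin. CCT3 (chromosome 25, 33192 to 43644) had the highest H3K4me3 fold of all members, 97.2, at the 99.3rd percentile. That peak was 413 bp wide, lay at the right end, and was shared with LOC107049500, 1091 bp away. The left end had 26.0, in a peak also at an end of GLMP, 420 bp away. CCT4 had 49.6, CCT6A 41.1, CCT2 22.0, CCT7 20.9 and CCT8 19.8. CCT5 stood apart at 6.02 and lay 32 bp from FAM173B, whose end held the same peak. CCT6A overlaps PSPH in the gene table and shared its strongest peak with it, and CCT7 shared its own with PRADC1, 283 bp away. CCT4 overlaps BMP2 there, but its strongest peak was not at an end of another coding gene.

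SUZ12 was at all 7 CCT genes (64.5% of all coding genes) and EZH2 at 6 (59.3%), all but CCT5. JARID2 was at 6 of 7 (43.2%), again all but CCT5. AEBP2 was at 3 (37.1%), namely CCT2, CCT3 and CCT7. With both ends counted together, these had all 4 PRC2 subunits with H3K4me3 alone, as had 17.05% of the 8077 coding genes of that state. At CCT7, JARID2 (3.22) and AEBP2 (2.72) were only at the left end, and H3K4me3, EZH2 and SUZ12 only at the right end. The AEBP2 peak of CCT3 (1.46) stood at the 0.0339th percentile of its list. CCT2 had the highest folds of the family for EZH2 (6.20), SUZ12 (8.77, at the 98.2nd percentile) and AEBP2 (3.44), and CCT4 that for JARID2 (5.37). At CCT8 the SUZ12 fold was 7.23 while the EZH2 fold of 1.36 stood at the 0.301st percentile of its own list.

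**Figure D3:**
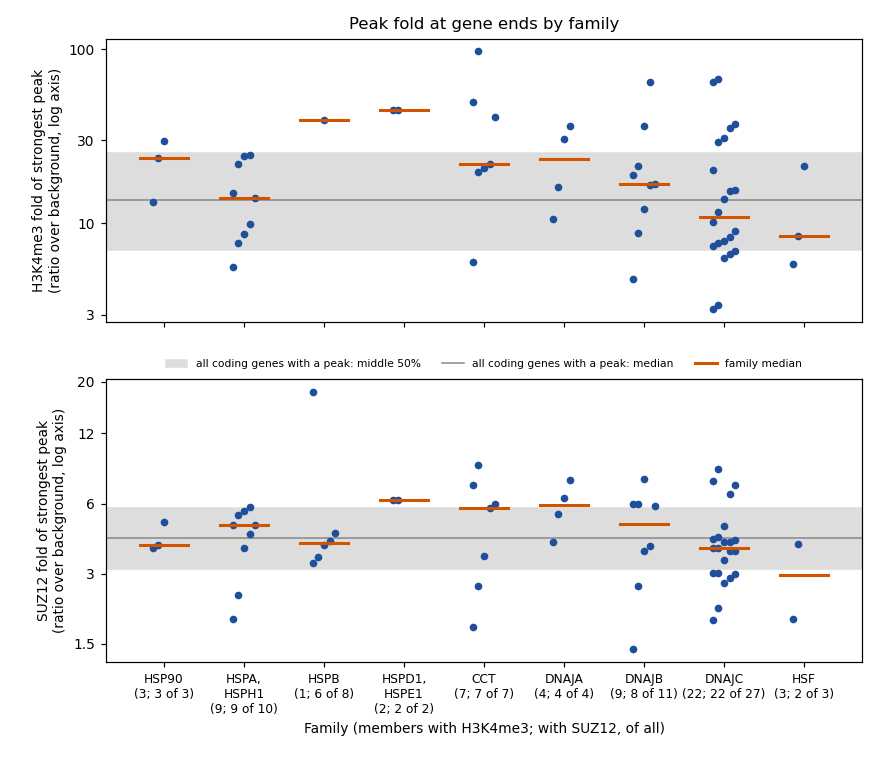
Fold of the strongest peak at a gene end (ratio over background, log axis) for H3K4me3 (top) and SUZ12 (bottom), 1 point per member with a peak, by family, with the family median in orange. The grey line and band are the median and the middle 50% of all coding genes with a peak, and CCT3 is the highest H3K4me3 point at 97.2 and HSPB11 the highest SUZ12 point at 18.1.

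The DNAJ families hold 42 members, of which 35 had H3K4me3 (57.2% of all coding genes) and 7 H3K27me3 (26%). The 4 DNAJA genes, general J-domain partners of HSP70, had H3K4me3 folds from 10.7 at DNAJA1 to 36.4 at the mitochondrial DNAJA3, and SUZ12 at all 4. The highest H3K4me3 folds of the DNAJ genes were at DNAJC30 (67.1), a mitochondrial protein, DNAJC25 (64.5), DNAJB1 (64.5), DNAJC16 (37.1) and DNAJB4 (36.4). The peak of DNAJC25 was the widest of all members (3289 bp), and it was shared with ECPAS. DNAJC30 lay 84 bp from WBSCR22, and its peak was shared with it. DNAJB1, the main heat-inducible HSP40 of the cytosol (chromosome 30, 364426 to 369686), had none of the 4 PRC2 subunits within the end windows and no EZH2 or AEBP2 peak within 10 kb. A SUZ12 peak of fold 2.79 lay inside the strongest H3K4me3 peak of DNAJB1, 1062 bp from the gene and so just beyond the window. That strongest H3K4me3 peak lay wholly outside DNAJB1, 867 bp beyond its left end, and was shared with GIPC1, 1436 bp from DNAJB1. The H3K4me3 peak that overlaps DNAJB1 itself, at the right end, had a fold of 23.3.

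The lowest H3K4me3 folds of the DNAJ genes were at DNAJC6 (3.22), DNAJC27 (3.42), DNAJB13 (4.78), DNAJC10 (6.33) and DNAJC28 (6.70). DNAJC10 is a reductase of the endoplasmic reticulum, and DNAJB13 a part of sperm and ciliary axonemes in mammals. The J-domain proteins of the endoplasmic reticulum DNAJB9, DNAJB11 and DNAJC3 had 16.9, 16.7 and 7.91. They carried SUZ12 (5.98, 1.42 and 3.76) and EZH2 (1.36, 1.46 and 3.28). The EZH2 and SUZ12 folds of DNAJB11 stood at the 0.798th and the 0.0789th percentile of their lists, among the weakest peaks there.

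The small heat shock genes had the lowest count of the 9 families. Without HSPB11, none of 7 had an H3K4me3 peak at an end, 2 had H3K27me3 (HSPB8 and HSPB9) and 5 had neither mark (HSPB1, HSPB2, HSPB3, HSPB7 and HSPB7L). Among all coding genes, 57.2% had H3K4me3, 26% H3K27me3 and 28.7% neither. HSPB11 encodes IFT25, a protein of intraflagellar transport in cilia, and not a chaperone in the usual sense. It was the only HSPB gene with H3K4me3, so the count of none among the other 7 follows from leaving it out. That split was not planned before values were seen. These 7 genes are short, with a median length of 1645 bp. SUZ12 was at 5 of 7 (64.5% of all coding genes), JARID2 at 4 (43.2%), EZH2 at 2 (59.3%) and AEBP2 at 1 (37.1%).

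HSPB1 encodes HSP27, the most widely expressed small heat shock protein. Its ends (gene on chromosome 19, 4741288 to 4743195) held SUZ12 (3.54) and JARID2 (5.92) and neither histone mark, and no H3K4me3 peak lay within 10 kb. HSPB3 and HSPB2, known from muscle in mammals, had neither mark. HSPB3 had SUZ12 (3.32) and AEBP2 (4.25), and HSPB2 had no peak of any list at its ends. HSPB2 lies 1471 bp from CRYAB, which encodes alpha-B crystallin and whose end held an H3K4me3 peak of 5.93, 2437 bp wide, 1380 bp beyond the end of HSPB2. On its other side the nearest H3K4me3 peak, of 2.41, was 1215 bp away. HSPB7, a heart and muscle form in mammals, had SUZ12 (4.15) at its ends. HSPB7L had EZH2 (2.06), SUZ12 (3.98) and JARID2 (5.14).

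The width of the window decides the count. With windows of 2500 bp, 4 of 8 HSPB genes had H3K4me3, adding HSPB2, HSPB7 and HSPB9. The share of all coding genes was then 60.7%, inside the wide interval that the family had with windows of 1 kb (0.316 to 52.7%) or not far above it. With windows of 500 bp (55.1% of all coding genes), with peaks of −log10 q of at least 5 (56.4%) and with lists of equal size (57.2%), HSPB11 was again the only one. HSPB11 itself (chromosome 8, 24797805 to 24801255) had an H3K4me3 fold of 39.2, the highest SUZ12 fold of all members (18.1, at the 99.9th percentile) and all of EZH2 (12.4), JARID2 (6.95) and AEBP2 (3.29), without H3K27me3. Its peaks lay at the right end. LRRC42 lies 89 bp from it, and the H3K4me3 peak was at an end of LRRC42 too.

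The 3 genes with an HSF symbol had H3K4me3. HSF3, a heat shock factor of birds, had 21.3 and the others less: HSF2, a factor active in development, 8.42, and HSF2BP, a binding partner of HSF2 that acts in meiotic recombination in mammals, 5.86. HSF3 also had a weak H3K27me3 peak (2.04, at the 3.20th percentile), EZH2 (6.40), SUZ12 (4.03) and JARID2 (5.87). Each of these HSF3 peaks, and its H3K4me3 peak, was shared with HEPH, 180 bp away. The H3K4me3 peak of HSF2BP was shared with RRP1B, which overlaps it. No HSF1 symbol matched the rule. The table gives HSF1 as a synonym of LOC420362 and also of HSF3. LOC420362 had H3K4me3 (37.2), no H3K27me3 and no PRC2 subunit at its ends.

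**Figure D4:**
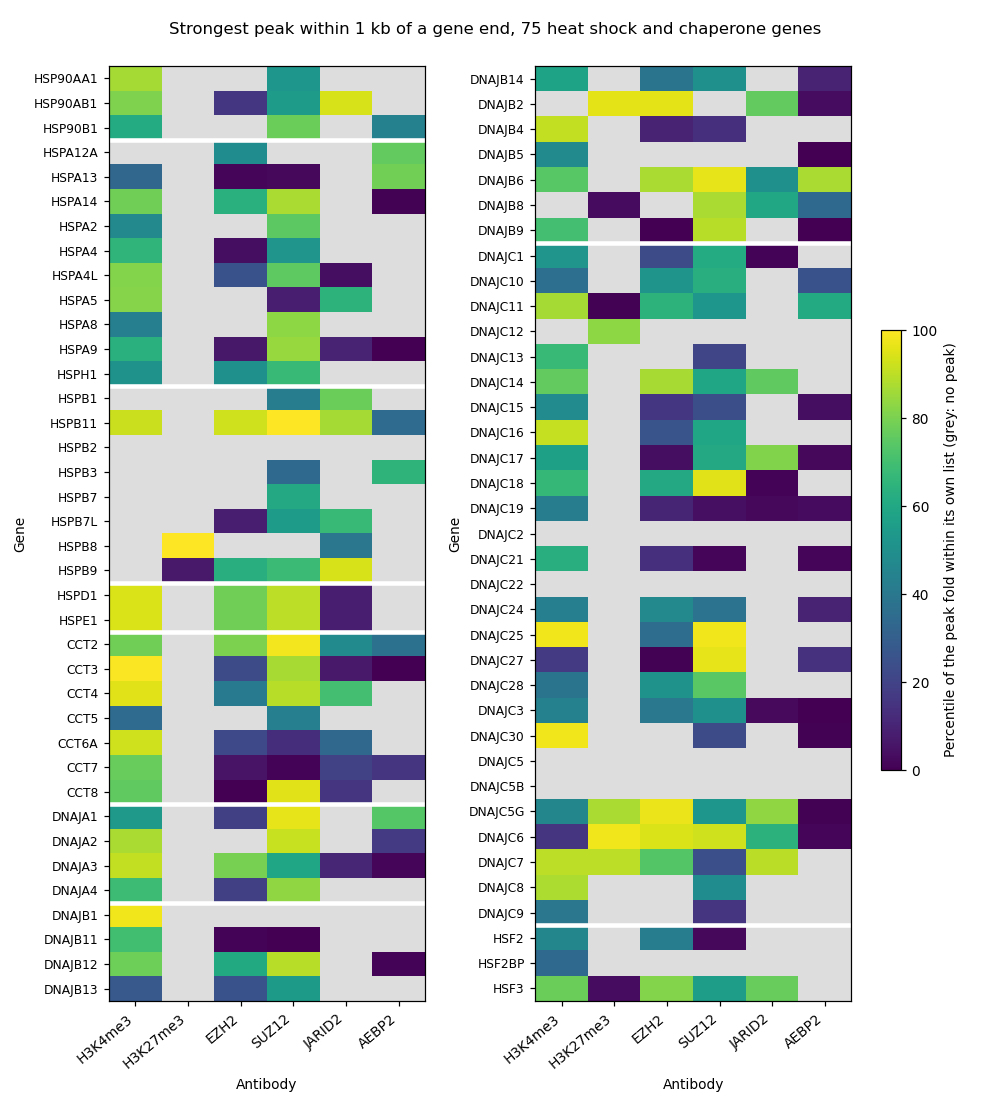
Percentile of the strongest peak at a gene end within its own list (colour, 0 to 100; grey, no peak) for each of the 75 genes (rows, grouped by family with white lines) and 6 antibodies (columns). The H3K27me3 column is grey for 65 genes, and the H3K4me3 column is grey for 7 of 8 HSPB genes.

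H3K27me3 was at the ends of 10 members, and in all but 4 of them the strongest peak stood at or above the 82.9th percentile of its list. HSPB8, a partner of BAG3 in selective autophagy (chromosome 15, 9725194 to 9728212), had the highest fold, 72.8, at the 99.7th percentile, over 4.17 kb. DNAJC6 is auxilin, which uncoats clathrin vesicles and is known from neurons in mammals; it had 44.2 over 6.96 kb. DNAJB2, also enriched in neurons in mammals, had 31.9 over 5.61 kb. DNAJC7, an HSP70 and HSP90 co-chaperone, had 17.4 over 9.61 kb, and DNAJC5G, a relative of the cysteine string protein of synaptic vesicles, 13.7 over 4.02 kb. DNAJC12, a J-domain protein that binds aromatic amino acid hydroxylases in mammals, had 9.98. The remaining 4 were weak, at 2.30 (HSPB9), 2.04 (HSF3), 2.01 (DNAJB8) and 1.75 (DNAJC11), all at or below the 6.74th percentile. The median over the 10 was 11.9, against 12.5 over all coding genes with such a peak.

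The strongest H3K27me3 peak of 8 of these 10 also lay at an end of another coding gene, as it did for 40.8% of the 4637 coding genes with H3K27me3. CCDC60 lies 153 bp from HSPB8, PTPRN 184 bp from DNAJB2, TRIM54 229 bp from DNAJC5G and AK4 1343 bp from DNAJC6, and CNP overlaps DNAJC7. DNAJC12 and DNAJB8 were the 2 whose peak was not shared. With unshared peaks only, 3 members had H3K27me3 (4%, against 16.8% of coding genes), HSPB8 among them through a weaker peak of 3.19 at its right end.

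The PRC2 subunits lay within the strong H3K27me3 peaks in most cases. EZH2 overlapped the strongest H3K27me3 peak of 7 of the 10 members (83.2% of all coding genes with H3K27me3), SUZ12 6 (63.5%), JARID2 7 (67.8%) and AEBP2 4 (46.5%). The 3 highest EZH2 folds at the ends of members were here, at DNAJC5G (26.6), DNAJB2 (18.9) and DNAJC6 (15.4). At HSPB8 all 4 lay inside the H3K27me3 peak, EZH2 with 12.8, SUZ12 with 12.1, AEBP2 with 6.53 and JARID2 with 3.05, but from 2479 to 2700 bp outside the gene and so beyond the end windows. HSPB8 was not alone in this. At DNAJC7 the strongest EZH2 (20.8), SUZ12 and JARID2 peaks inside the H3K27me3 peak lay 3435, 1762 and 4812 bp outside the gene. At DNAJB2 those of SUZ12, JARID2 and AEBP2 lay 3144, 3977 and 3404 bp outside, and that of EZH2 665 bp. At DNAJC5G that of EZH2 overlapped the gene and the others lay outside it, and at DNAJC6 all 4 overlapped the gene. DNAJC12 had H3K27me3 in its body too (10.6), and no PRC2 peak inside its strongest end peak or at either end. DNAJB8 and DNAJC11 had no PRC2 peak inside their H3K27me3 peaks, which were 406 and 195 bp wide.

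Both marks were present at DNAJC5G, DNAJC6, DNAJC7, DNAJC11 and HSF3. At DNAJC6, DNAJC11 and HSF3 the marks overlapped at the same end, 3 of 5, against 73.5% of the 2132 coding genes with both. At DNAJC7 the 2 marks were at opposite ends, H3K27me3 at the left and H3K4me3 of 35.3 at the right, where NKIRAS2 overlaps. At DNAJC5G H3K4me3 of 8.39 was at the right end and H3K27me3 at the left. The overlap at DNAJC6 paired a strong H3K27me3 peak with the lowest H3K4me3 fold of all members, and the overlap at DNAJC11 paired an H3K4me3 fold of 29.5 with the lowest H3K27me3 fold.

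**Figure D5:**
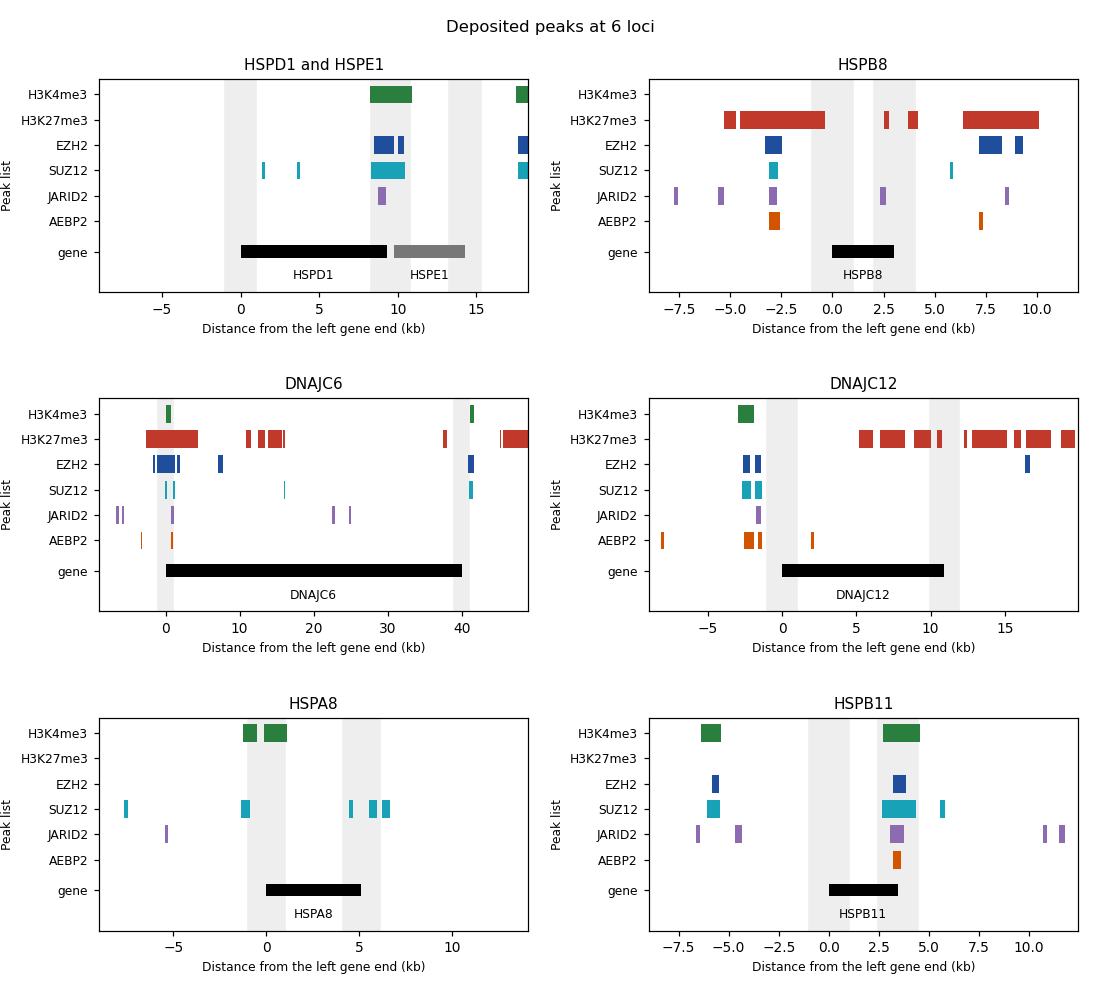
Deposited peaks (coloured bars) of 6 lists around 6 loci, as distance from the left gene end (kb), with the gene in black (HSPE1 in grey) and the windows of 1 kb around the gene ends shaded. HSPD1 and HSPE1 share the peaks between them, at HSPB8 the 4 PRC2 subunits lie within the H3K27me3 peak to the left of the gene, and at DNAJC12 H3K27me3 peaks lie in the right part of the gene with no PRC2 peak under them.

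Across all members, SUZ12 was at the ends of 63 (84%, interval 73.7 to 91.4), against 64.5% of all coding genes, and EZH2 at 50 (66.7%, 54.8 to 77.1), against 59.3%. JARID2 was at 31 (41.3%, 30.1 to 53.3), against 43.2%, and AEBP2 at 32 (42.7%, 31.3 to 54.6), against 37.1%. For EZH2, JARID2 and AEBP2 the share of all coding genes lay inside the interval of the members. The direction of the EZH2 difference turned when only genes with a symbol were the background (68.2%), when lists were of equal size (22.7% of members against 29.8%) and with unshared peaks (24% against 34.7%). The AEBP2 difference of 5.59 percentage points turned to -2.32 with windows of 2500 bp, -5.30 with −log10 q of at least 5 and -2.99 with lists of equal size, and the JARID2 difference of -1.85 turned to 2.05 with −log10 q of at least 5. The SUZ12 difference of 19.5 percentage points was 6.24 with lists of equal size and 0.200 with unshared peaks. With only genes with a symbol as background it was 10.0, and the SUZ12 share of those genes (74.0%) lay inside the interval of the members.

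Members were then compared with coding genes of the same histone state. Among the 55 with H3K4me3 alone, SUZ12 was at 52 (89.7% of the 8077 coding genes of that state), EZH2 at 41 (75.7%), JARID2 at 21 (43%) and AEBP2 at 25 (39.2%). The exact intervals of the members, 84.9 to 98.9%, 61.0 to 85.3%, 25.4 to 52.3% and 32.0 to 59.4%, each held the value of all genes of the state. EZH2 without SUZ12 was found at none of the 55 (4.18% of the 8077), and SUZ12 without EZH2 at 11 (18.2%). Those 11 were HSP90AA1, HSP90B1, HSPA2, HSPA5, HSPA8, CCT5, DNAJA2, DNAJC8, DNAJC9, DNAJC13 and DNAJC30. Neither was at DNAJB1, DNAJB5 and HSF2BP (6.12%). Within the gene or 10 kb of it, 7 of the 55 had no EZH2 peak (10.4% of genes of that state), 10 no JARID2 peak (14.1%), 10 no AEBP2 peak (19%) and none lacked SUZ12 (1.5%).

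The other states held few members. All 5 members with both marks had EZH2 (96.7% of coding genes with both) and SUZ12 (88.1%), 4 had JARID2 (78.1%) and 3 AEBP2 (50.7%). Of the 5 with H3K27me3 alone, EZH2 was at the ends of 2 (78.5%), DNAJB2 and HSPB9, SUZ12 at 2 (54.7%), DNAJB8 and HSPB9, JARID2 at 4 (67.6%), all but DNAJC12, and AEBP2 at 2 (45.8%), DNAJB2 and DNAJB8. Of the 10 with neither mark, EZH2 was at 2 (8.64%), HSPA12A and HSPB7L, and SUZ12 at 4 (19.8%), all of them HSPB genes. JARID2 was at 2 (17%), HSPB1 and HSPB7L, and AEBP2 at 2 (23.8%), HSPA12A and HSPB3. With so few genes each of these exact intervals was wide, such as 5.27 to 85.3% for EZH2 at H3K27me3 alone.

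The folds at members tended to lie low within their lists for some antibodies. The median EZH2 fold at members was 3.23, against 4.03 over all coding genes with an EZH2 peak, and the median AEBP2 fold 2.41, against 3.37. For SUZ12 the medians were 4.10 and 4.27, for JARID2 4.30 and 4.62, and for H3K4me3 16.4 and 13.7. The median AEBP2 peak at members stood at the 6.56th percentile of its list, against the 36.2nd over all coding genes with an AEBP2 peak. No member had 1 of the 11079 strongest AEBP2 peaks at an end, and only 2.99% of all coding genes did. Within H3K4me3 alone the EZH2 medians were 2.75 for members and 3.12 for all.

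EZH2 and SUZ12 overlapped the strongest H3K4me3 peak itself at most members with that mark, and JARID2 and AEBP2 at fewer, as over all coding genes. EZH2 did so at 44 of 60 members (73.3%, against 77.8% of coding genes with H3K4me3) and SUZ12 at 53 (88.3%, against 85.4%). JARID2 did so at 19 (31.7%, against 39.9%) and AEBP2 at 21 (35%, against 33.8%). One subunit was at the ends of 10 members (16% of coding genes), 2 at 17 (23.2%) and 3 at 28 (26.9%). All 4 subunits were at the ends of 12 members (15.2%), namely CCT2, CCT3, CCT7, DNAJA3, DNAJB6, DNAJC3, DNAJC5G, DNAJC6, DNAJC17, DNAJC19, HSPA9 and HSPB11. The ends were counted together, and at CCT7, DNAJB6, DNAJC5G and DNAJC17 not every subunit had a peak at the end with H3K4me3. Of the 12, DNAJC5G and DNAJC6 had H3K27me3. None of the 4 was at 8 members (18.6%), namely DNAJB1, DNAJC2, DNAJC5, DNAJC5B, DNAJC12, DNAJC22, HSF2BP and HSPB2. The highest AEBP2 folds were at DNAJB6 (5.64), an inhibitor of protein aggregation, HSPA13 (5.01) and HSPA12A (4.78), and the highest JARID2 folds after HSP90AB1 at HSPB9 (8.76) and DNAJC7 (7.50).

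Neither mark was at the ends of 10 members, which were HSPA12A, 5 HSPB genes and 4 DNAJC genes. DNAJC2 (the J-domain partner of HSPA14), DNAJC5 (cysteine string protein) and DNAJC22 nevertheless had an H3K4me3 peak inside the gene, beyond the end windows. The fold was 15.7 at DNAJC2, 1913 bp from the right end, 9.17 at DNAJC5, 1580 bp from it, and 10.7 at DNAJC22, 2886 bp from it. Each lay within 1 kb of an end of another gene, namely PSMC2, TPD52L2 and SPATS2. Of the 774 coding genes with a body peak and none at an end, 26.7% had a body peak so placed. DNAJB2 had such a peak too (4.18, 1139 bp from the right end), inside its H3K27me3 region. With HSPA12A these made 5 of the 9 members that had no H3K4me3 at an end and were long enough to have a body, against 11.7% of 6588 coding genes, and 65 of 75 members had H3K4me3 at an end or in the body. DNAJC5B, which in the annotation spans 40819 bp, had no peak of any list at its ends or in its body.

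Gene bodies of members held AEBP2 and H3K27me3 peaks at a lower density than those of all coding genes, and the other lists at a like or higher one. A body, the gene outside the end windows, existed for 69 members, with a median of 8.93 kb against 12.3 kb over all coding genes, and 1.02 Mb in all. H3K4me3 was in the body of 7 (12.2% of coding genes with a body), H3K27me3 of 4 (15%), EZH2 of 11 (27.9%), SUZ12 of 30 (50.2%), JARID2 of 20 (46.5%) and AEBP2 of 19 (46.6%). Since long bodies meet more peaks, the density is the fairer measure. Per 100 kb of body, AEBP2 had 6.98 peaks in members and 13.7 in all coding genes, H3K27me3 0.983 and 1.66, and H3K4me3 0.688 and 0.483. For EZH2 (1.97 and 1.82), SUZ12 (5.50 and 5.24) and JARID2 (4.23 and 4.43) the densities were close. HSPA12A alone held 24 of the 71 AEBP2 body peaks and DNAJB6 12.

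Other genes of protein folding were set beside the members, from lists written with earlier results of these data known. Of 68 names, 59 matched a coding gene, and 55 of these had H3K4me3 (93.2%, against 57.2% of all coding genes) and 5 H3K27me3 (8.47%, against 26%). EZH2 was at 41 (69.5%, against 59.3%) and SUZ12 at 53 (89.8%, against 64.5%). JARID2 at 26 (44.1%, against 43.2%) and AEBP2 at 22 (37.3%, against 37.1%) were near the shares of all coding genes. Shared peaks were not separated for these lists. Among 23 HSP70 and HSP90 co-chaperones 22 had H3K4me3. The exception, BAG2, a nucleotide exchange factor, had SUZ12 (3.82) and AEBP2 (5.68) and neither mark at its ends. BAG3, the partner of HSPB8, had both marks (H3K4me3 15.1, H3K27me3 3.54), as had STUB1 (18.1 and 3.49), a ubiquitin ligase that acts on chaperone clients.

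All 18 genes of folding and the unfolded protein response in the endoplasmic reticulum had H3K4me3, with a median fold of 21.9, and so had all 5 mitochondrial genes. PDIA3, a disulfide isomerase, also had H3K27me3 (22.1) and EZH2 (23.5). Of 9 genes for prefoldin, TCP1 and their helpers 8 had H3K4me3. PFDN4 had H3K27me3 as well (7.88), and PFDN2 had no peak of any list at its ends. The lens crystallins of the small heat shock family, CRYAA and CRYAB, had H3K4me3 folds of 3.61 and 5.93, both below the median of 13.7 over all coding genes with a peak. Neither had EZH2. CRYAA had SUZ12 (2.97), JARID2 (3.81) and AEBP2 (2.29) at its ends, and CRYAB had no PRC2 subunit there. HSF4, a factor known for its role in lens fiber cells of mammals, had neither mark, with SUZ12 (2.87) and JARID2 (9.09) at its ends, and HSF5 had H3K27me3 (21.0), EZH2 (5.87) and JARID2 (9.29).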

How the data were processed

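CUT&RUN of embryonic lens chromatin gave 6 deposited peak lists, 1 per antibody. Per the submitters' processing notes, the build was GRCg7b and the tools included MACS2 2.2.7.1, Trim Galore 0.6.4 and Bowtie2 2.4.1. How libraries were combined and which control the caller had are not stated in the labels. The deposited fold of a peak is a ratio over background, and its deposited −log10 q-value was adjusted within its list by the caller of the authors. The score column as deposited equals 10 times the −log10 q and, like the deposited p-value and summit offset, was used for no result. The smallest −log10 q in each list was near 1.3, the value of a q limit of 0.05.

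The gene table was that of RefSeq for GRCg7b, and 3539 of its coding genes have a LOC identifier in place of a symbol. Overlaps, counts, medians, exact binomial intervals (95%) and body densities were computed with Python 3.11.15, pandas 2.3.3, NumPy 2.4.6 and SciPy 1.17.1. No test was made, since each antibody had 1 list with no value per library, and the 3 pools cannot be compared. Gene sequences and motifs were not analysed here.

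The members and lists were chosen with earlier results of these data known. Named genes are all members outside the DNAJ families; DNAJ members with H3K27me3 or neither mark, with the 5 highest or 5 lowest H3K4me3 folds or the 3 highest EZH2, JARID2 or AEBP2 folds; members that share a peak; and listed folding genes with H3K27me3 or neither mark. DNAJ genes of the endoplasmic reticulum, DNAJA1, LOC420362 and the crystallins were named for their role after values were seen. Alternatives changed the windows, the q limit, the list size, the overlap, the background, the body, the shared peaks and the HSPB family.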

Additional observations from a re-analysis of the deposited data

How the results depend on the processing

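Of 184 recomputed values, 131 were called the same, 43 moved and 10 turned direction. Counts and median folds were called the same within 1.5 times the reported value. Differences in percentage points were called the same when their direction held and they lay inside the members' exact interval less the background share. The JARID2 difference of -1.85 points, for example, counted as the same at -6.95 with only genes with a symbol as background. No paired analysis was possible because each antibody had 1 list with no value per library, and for the same reason no replicate was left out. The alternative with only the start of each gene was not run, since the strand was not used, nor were promoter motifs. Taking the peak midpoint or the widest peak changed nothing by these measures. Causes were not tested.

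A further setting used only peaks not at an end of another coding gene (chosen after seeing the data). H3K4me3 was then at 24 members (28.8% of all coding genes), H3K27me3 at 3 (16.8%) and EZH2 at 18 (34.7%). SUZ12 was at 30 (39.8%), JARID2 at 18 (28.8%) and AEBP2 at 21 (26.2%). H3K4me3 alone was at 24, both marks at 0, H3K27me3 alone at 3 and neither at 48. The shares of these states over all coding genes were not recomputed under the alternative settings. The difference from all coding genes was 3.18 percentage points for H3K4me3, 0.200 for SUZ12 and -10.7 for EZH2, a turned direction. Without the HSPB family (also chosen after seeing the data), 3 had H3K27me3 alone (14% of all coding genes) and 5 neither (28.7%).

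With the 11079 strongest peaks of each list, H3K27me3 was at 6 members (20.7% of all coding genes), EZH2 at 17 (29.8%) and SUZ12 at 21 (21.8%). JARID2 was at 7 (14.0%) and AEBP2 at 0 (2.99%). Both marks were at 3 and H3K27me3 alone at 3. The difference was 6.24 points for SUZ12 and turned to -7.09 for EZH2 and -2.99 for AEBP2. In bodies, EZH2 was then in 4 (14.2% of coding genes with a body), SUZ12 in 8 (20.6%), JARID2 in 7 (19.1%) and AEBP2 in 1 (9.81%). With −log10 q of at least 5, AEBP2 was at 14 (24.0% of all coding genes) and H3K27me3 alone at 3. The difference then turned to 2.05 points for JARID2 and -5.30 for AEBP2. Bodies held EZH2 in 6 (22.0% of coding genes with a body), SUZ12 in 18 (36.5%), JARID2 in 11 (28.9%) and AEBP2 in 9 (30.8%).

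With windows of 2500 bp, H3K27me3 was at 16 (30.4% of all coding genes), both marks at 12 and neither at 4, and the AEBP2 difference turned to -2.32 points. With windows of 500 bp, 3 had H3K27me3 alone. With only genes with a symbol as background, the EZH2 difference turned to -1.51 points. Whole genes were also counted from end to end, without the parts of the end windows outside the gene. H3K4me3 was then in 64 (58.8% of all coding genes), H3K27me3 in 7 (27.5%) and EZH2 in 47 (61.4%). SUZ12 was in 64 (71.7%), JARID2 in 36 (57.6%) and AEBP2 in 34 (52.5%). The differences then were 26.6 points for H3K4me3, 1.26 for EZH2 and 13.6 for SUZ12, all turned, and -18.1 for H3K27me3. A whole gene takes in peaks at its ends that the body count leaves out, so these values do not bear on bodies alone. This setting gave 7 of the moved and 3 of the turned values counted above. Depth is unknown and no IgG signal was used, so weak peaks, such as those of AEBP2 at members, are the least certain.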
